A study of Mus musculus with 39 samples.

Results

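The libraries described here are 10 RNA-seq libraries of CD8+ T cells sorted from mouse tumours, 5 from the CZA+DAV132 arm and 5 from the CZA arm, all from mice given an isotype control antibody. They were chosen by their labels and make up 10 of the 39 libraries of the series. In both arms wild-type C57BL/6 mice, an inbred laboratory strain, received a faecal microbiota transplant (FMT) of human volunteers' stool, in the first arm stool with 6 days of CZA and DAV132 and in the second stool with 6 days of CZA alone. CZA is known here only by that abbreviation, and DAV132 is named in the study's title as an adsorbent targeted to the colon. MCA-205 cells, a fibrosarcoma line matched to this strain, were implanted under the skin 2 weeks after the transplant. From a tumour size of 25 to 35 mm2 the mice received isotype antibody (clone 2A3) 4 times at intervals of 3 days, and tumours were taken 2 days after the last injection. The comparison thus asks how the transcripts of tumour CD8+ T cells differed between the FMT arms when PD-1 was not blocked. The stools given are not replicated by the libraries, so DAV132 and any other difference between the stools cannot be told apart, and no label ties a library to its own mouse, so p-values measure the spread between libraries, which may be partly technical.

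CD8+ T cells kill tumour cells through perforin and granzymes and release interferon gamma. Type I interferons act on a promoter element called ISRE and induce antiviral effectors such as the Oas and Ifit families. Interferon gamma acts mainly on an element called GAS and induces guanylate-binding proteins, immunity-related GTPases and the chemokine Cxcl9. Macrophages and monocytes express lysozyme, complement C1q and MHC class II, which mouse CD8+ T cells largely lack, so these transcripts also show what else a sorted sample may hold.

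The promoters of 6 interferon-induced genes described below are shown, none of which differed between the arms at an adjusted p under 0.05. They run from 250 bases before to 50 bases after the gene start in RefSeq's table (GRCm38.p6), 5′ to 3′ on the gene's strand. Capitals mark every match, on either strand, to the core of the ISRE (GAAA, any 2 bases, GAAA) or to the GAS (TTC, any 3 bases, GAA). The first 3 are the type I interferon effectors of smallest p, Oas1g at chr5:120887564-120887863 on the minus strand, Ifi44 at chr3:151749861-151750160 on the minus strand and Oasl1 at chr5:114922990-114923289 on the plus strand. The other 3, picked after their values were seen, are the genes of smallest p in the interferon gamma list, Cxcl9 at chr5:92328030-92328329 on the minus strand, Irgm2 at chr11:58214727-58215026 on the plus strand and Gbp2 at chr3:142620413-142620712 on the plus strand.
Oas1g: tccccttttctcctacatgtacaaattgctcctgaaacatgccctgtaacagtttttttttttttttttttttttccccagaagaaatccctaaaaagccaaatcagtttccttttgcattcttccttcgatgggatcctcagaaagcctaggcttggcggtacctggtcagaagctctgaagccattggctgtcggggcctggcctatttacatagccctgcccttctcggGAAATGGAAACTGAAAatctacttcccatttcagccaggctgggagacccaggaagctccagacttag
Ifi44: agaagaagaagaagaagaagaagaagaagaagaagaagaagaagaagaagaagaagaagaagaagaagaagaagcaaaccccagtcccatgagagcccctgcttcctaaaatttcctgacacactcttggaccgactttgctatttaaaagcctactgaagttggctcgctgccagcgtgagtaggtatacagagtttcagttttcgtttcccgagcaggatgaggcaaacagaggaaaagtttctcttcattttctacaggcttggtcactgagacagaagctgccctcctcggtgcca
Oasl1: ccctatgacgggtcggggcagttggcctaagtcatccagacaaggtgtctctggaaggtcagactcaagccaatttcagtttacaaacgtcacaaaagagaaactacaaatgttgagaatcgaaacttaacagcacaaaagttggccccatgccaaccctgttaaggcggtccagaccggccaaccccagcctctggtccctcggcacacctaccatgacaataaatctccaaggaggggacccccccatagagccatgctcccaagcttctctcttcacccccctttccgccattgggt
Cxcl9: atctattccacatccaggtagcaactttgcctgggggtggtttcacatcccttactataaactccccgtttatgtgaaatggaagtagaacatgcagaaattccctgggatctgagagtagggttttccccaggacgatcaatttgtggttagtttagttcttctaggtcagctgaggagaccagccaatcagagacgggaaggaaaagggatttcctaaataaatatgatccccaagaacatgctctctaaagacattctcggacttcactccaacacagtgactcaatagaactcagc
Irgm2: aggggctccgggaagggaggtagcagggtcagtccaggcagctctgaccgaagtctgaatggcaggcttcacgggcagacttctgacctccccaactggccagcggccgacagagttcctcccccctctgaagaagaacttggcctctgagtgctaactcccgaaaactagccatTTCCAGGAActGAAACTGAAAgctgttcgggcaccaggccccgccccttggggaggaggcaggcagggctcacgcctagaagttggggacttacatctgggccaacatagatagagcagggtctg
Gbp2: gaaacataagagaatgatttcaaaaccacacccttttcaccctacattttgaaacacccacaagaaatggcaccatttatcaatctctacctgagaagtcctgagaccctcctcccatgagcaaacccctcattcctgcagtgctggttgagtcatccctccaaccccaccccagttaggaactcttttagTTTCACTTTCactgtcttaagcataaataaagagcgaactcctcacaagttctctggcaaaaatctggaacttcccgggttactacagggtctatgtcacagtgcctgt
Oas1g held 2 overlapping ISRE core matches, which begin 18 and 12 bases before the gene start. Irgm2 held a GAS match and, next to it, an ISRE core match, and Gbp2 held an ISRE core match on the other strand. The letters of neither motif occurred in the windows of Ifi44, Oasl1 and Cxcl9. The ISRE core was found in 3.44% of all 32851 promoters of the table, in 17 of the 29 type I effectors with an entry, in 11 of the 14 interferon gamma induced genes with one and in 2 of the 20 macrophage and monocyte markers with one. The GAS was found in 8.3% of all promoters, in 7 of those 29, in 6 of those 14 and in 1 of those 20. The shares of all promoters count each entry, while a gene of a list was counted once if any of its entries matched. The matches are a description of these windows.

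Values were deposited as TPM, transcript abundance corrected for length and scaled to a fixed total, which keep no read counts, so depth is unknown. Cd8a, the coreceptor that defines these cells, averaged 263 ± 50.3 TPM in CZA+DAV132 and 301 ± 65.5 TPM in CZA (SD, n = 5 each). Cd4 averaged 1.27 ± 0.629 TPM in CZA+DAV132 and 0.989 ± 0.368 TPM in CZA. Across genes, Pearson correlations of log2 values were 0.953 to 0.966 between CZA+DAV132 libraries, 0.920 to 0.959 between CZA libraries and 0.933 to 0.964 between a library of each arm. A share of TPM fell on 17 entries made of satellite or dinucleotide repeats. That share was 2.76%, 5.38%, 2.48%, 8.37% and 2.31% in CZA+DAV132 libraries 11 to 15, against 25.2%, 11.7%, 1.7%, 8.51% and 0.337% in CZA libraries 1 to 5. The arms overlapped, with a two-sided exact permutation p of 0.325, where 0.00794 is the smallest possible.

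No gene differed between the arms at an adjusted p under 0.05. Of 12942 genes tested with limma, 0 were called (0%), and the lowest Benjamini-Hochberg adjusted p was 0.107, for the processed pseudogene Gm14450. At an unadjusted p under 0.05, 87 genes (0.672%) were higher in CZA+DAV132 and 233 (1.8%) were lower. With median-ratio scaling of the libraries this split was 475 higher and 230 lower, and with TPM rescaled without the repeat entries it was 107 higher and 592 lower. The p-values and SE of the main fit take their spread from all 20 CD8 libraries, the anti-PD-1 groups included. With only the groups compared in the fit, 2 of 11948 genes were called. At an unadjusted p under 0.05, 241 were then higher and 364 lower. All 5 CZA+DAV132 libraries lay above all 5 CZA libraries in 40 genes (0.309%) and below them in 31 (0.24%). The median log2 fold change over all tested genes was -0.06, and 60% of genes lay below 0. Nothing passed the adjusted test in the main fit. The gene lists that follow are therefore described by their values, counts and medians beside those of all genes. List members move together across libraries, so a count of members below 0 is not a count of independent observations. The limma adjusted p of every list member and other gene described under isotype, except where another value is given, was 1 after rounding.

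**Figure D1:**
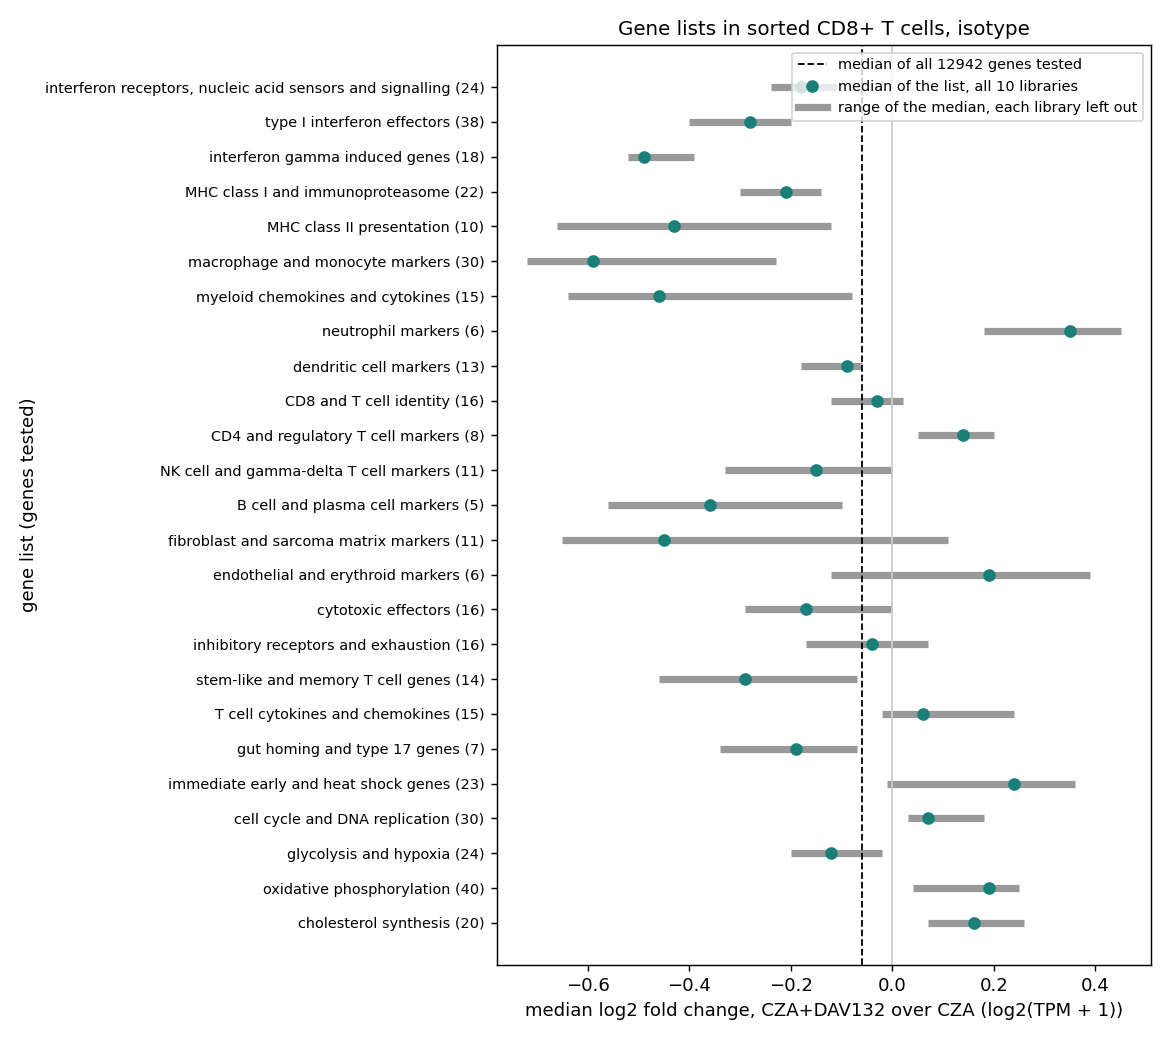
Median log2 fold change (CZA+DAV132 over CZA) of each gene list with at least 5 genes tested, with the number tested in brackets, where points use all 10 libraries and grey bars span the medians when each library is left out in turn. The interferon gamma induced genes, at -0.49, have a narrow bar from -0.52 to -0.39, and the macrophage and monocyte markers, at -0.59, a wide bar from -0.72 to -0.23.

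Interferon ligands were almost undetected apart from interferon gamma. Of the 7 ligands listed, Ifng alone passed the filter on low values, and Ifnb1 and Ifna4 were listed at 0 in all 10 libraries. Ifng had 292, 211, 251, 291 and 348 TPM in CZA+DAV132 libraries 11 to 15, against 244, 231, 167, 287 and 712 TPM in CZA libraries 1 to 5. The arms overlapped, and CZA library 5 stood far above the other CZA libraries. The log2 fold change was -0.06 ± 0.39 (SE), or 0.27 without CZA library 5, with no call in either fit.

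The receptors, sensors and signalling genes of the interferon pathway had a median of -0.18 over 24 tested genes, 18 of them below 0. Over all tested genes the median was -0.06 and 60% lay below 0. Irf7, which amplifies type I interferon responses, averaged 27.8 ± 6.56 TPM in CZA+DAV132 and 38.8 ± 11.3 TPM in CZA. Ifi204, a DNA sensor of the HIN-200 family, averaged 2.17 ± 0.857 TPM in CZA+DAV132 and 4.97 ± 2.57 TPM in CZA. It was the 1 gene of the list at an unadjusted p under 0.05 (log2 fold change -0.84). The cytosolic DNA sensor gene Mb21d1, which encodes cGAS, had the highest value of the list, at 0.15.

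Type I interferon effectors lay lower in CZA+DAV132, by a small margin spread over many genes. Of 39 genes 38 passed the filter, of which 35 had a log2 fold change below 0, against 60% of all tested genes. The median was -0.28. At an unadjusted p under 0.05, 3 of the 38 were lower and 0 were higher, where the shares over all genes were 1.8% and 0.672%. The lower count was 1 to 5 when each library was left out, with 1 without CZA library 2. Over all genes it was then 135 to 316, of 12822 to 12895 tested. The list count was 0 of the 29 members tested at a mean of at least 5 TPM, where 86 of all 7547 genes were lower. Oas1g, a member of the family of enzymes that sense double-stranded RNA, had 0, 0.465, 0.284, 1.89 and 0.476 TPM in CZA+DAV132 libraries 11 to 15, against 0.639, 2.64, 2.89, 3.7 and 4.74 TPM in CZA libraries 1 to 5. All the CZA+DAV132 libraries but library 14 lay below every CZA library. The log2 fold change was -1.26 ± 0.32 (SE). Without CZA libraries 1 and 2, an alternative chosen after seeing the data because these libraries held over 10% repeat entries, Oas1g was called at -1.64 (limma adjusted p = 0.0448), and over the 17 alternatives tried for it the adjusted p ran from 0.0448 to 1. Oas1g has close paralogs, and reads shared with them were divided by the authors' quantification, so its level is uncertain.

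Ifi44, an interferon-induced gene of the cytoplasm, had 0, 0.44, 0.767, 1.34 and 0.531 TPM in CZA+DAV132, against 1.71, 4.34, 1.19, 3.75 and 0.766 TPM in CZA. The arms overlapped through CZA+DAV132 libraries 13 and 14 and CZA libraries 3 and 5 (log2 fold change -0.97). Ifi44 has a dinucleotide stretch in a transcript, as 11.1% of tested genes do. Oasl1, which restrains translation of Irf7, had 2.98, 0.738, 1.98, 4.09 and 1.96 TPM in CZA+DAV132, against 1.49, 8.02, 3.6, 6.56 and 4.49 TPM in CZA. CZA library 1 was among the low libraries for this gene, and the log2 fold change was -0.76.

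Ifit3, Isg15 and Mx1, more abundant than Oas1g, Ifi44 and Oasl1, had log2 fold changes of -0.65, -0.24 and -0.17. Ifit3, which binds viral RNA together with its relatives, averaged 30.3 ± 13.3 TPM in CZA+DAV132 and 47.9 ± 19.2 TPM in CZA. Isg15, a ubiquitin-like modifier, averaged 102 ± 27.6 TPM in CZA+DAV132 and 121 ± 35.1 TPM in CZA, and the GTPase gene Mx1 averaged 9.6 ± 2.86 TPM in CZA+DAV132 and 10.6 ± 1.9 TPM in CZA. The 3 members above 0 were Ifi27l2a, at 0.30, Ifi27, at 0.05, and Ddx60, at 0.01. The summed level of the list was alike in the arms, 3497 ± 587 TPM in CZA+DAV132 and 3491 ± 710 TPM in CZA. Ifi27l2a, the most abundant of the members above 0, had 1214 to 2032 TPM in CZA+DAV132 and 824 to 1592 TPM in CZA.

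Interferon gamma induced genes leaned lower in CZA+DAV132 whichever library was left out. Of 22 listed genes with values, 18 passed the filter, and all 18 were below 0, with a median of -0.49, against 60% of all tested genes below 0. At an unadjusted p under 0.05, 5 of the 18 were lower, where the share over all genes was 1.8%, and none passed the adjusted test. That count was 12 when only the groups compared were fitted, 9 with median-ratio scaling, 13 with array weights and 13 of 19 without repeat entries. Over all genes the counts also moved, to 364 of 11948, 230 of 12830, 633 of 12942 and 592 of 13341 in the same order. With each library left out the list count was 3 to 6, with 3 without CZA library 4. Over all genes it was then 135 to 316, of 12822 to 12895 tested. The median stayed between -0.52 and -0.39 when each library was left out, with 18 of 18 below 0 each time. The summed level of the list was 460 ± 63.4 TPM in CZA+DAV132 and 621 ± 124 TPM in CZA.

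Cxcl9, a chemokine that draws Cxcr3-bearing T cells, had 2.07, 2.92, 3.65, 3.55 and 3.63 TPM in CZA+DAV132 libraries 11 to 15, against 8.01, 6.7, 2.35, 10.5 and 13.5 TPM in CZA libraries 1 to 5. CZA library 3 fell inside the CZA+DAV132 range and the other 4 CZA libraries lay above it. The log2 fold change was -1.01 ± 0.37 (SE). Cxcl10, which shares its receptor, averaged 53.5 ± 37.5 TPM in CZA+DAV132 and 63.9 ± 18.9 TPM in CZA, with a log2 fold change of -0.50 ± 0.50 (SE).

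Gbp2, a guanylate-binding protein gene, had 10.6, 10.9, 13.2, 13.6 and 15.4 TPM in CZA+DAV132, against 14.2, 27.5, 24.6, 22.8 and 21.2 TPM in CZA. CZA library 1 was the single CZA library below the highest CZA+DAV132 library (log2 fold change -0.73). Irgm2, an immunity-related GTPase gene, had 2.14, 3.38, 3.01, 2.51 and 2.52 TPM in CZA+DAV132, against 3.62, 4.64, 6.41, 5.18 and 4.3 TPM in CZA. Here the arms did not overlap, and the log2 fold change was -0.64 ± 0.24 (SE). Irgm2 was the 1 member of 18 without overlap, where 0.24% of all genes had every CZA+DAV132 library lowest.

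The other 2 members at an unadjusted p under 0.05 were Gbp2b and Tgtp1. Gbp2b averaged 2.12 ± 0.28 TPM in CZA+DAV132 and 3.46 ± 1.17 TPM in CZA, and the T cell specific GTPase gene Tgtp1 averaged 17.9 ± 7.13 TPM in CZA+DAV132 and 33.3 ± 12.6 TPM in CZA. Both families have near-identical copies, so their levels are uncertain. Cd274, which encodes the PD-1 ligand PD-L1, averaged 12.6 ± 2.87 TPM in CZA+DAV132 and 18.5 ± 4.93 TPM in CZA (log2 fold change -0.50).

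**Figure D2:**
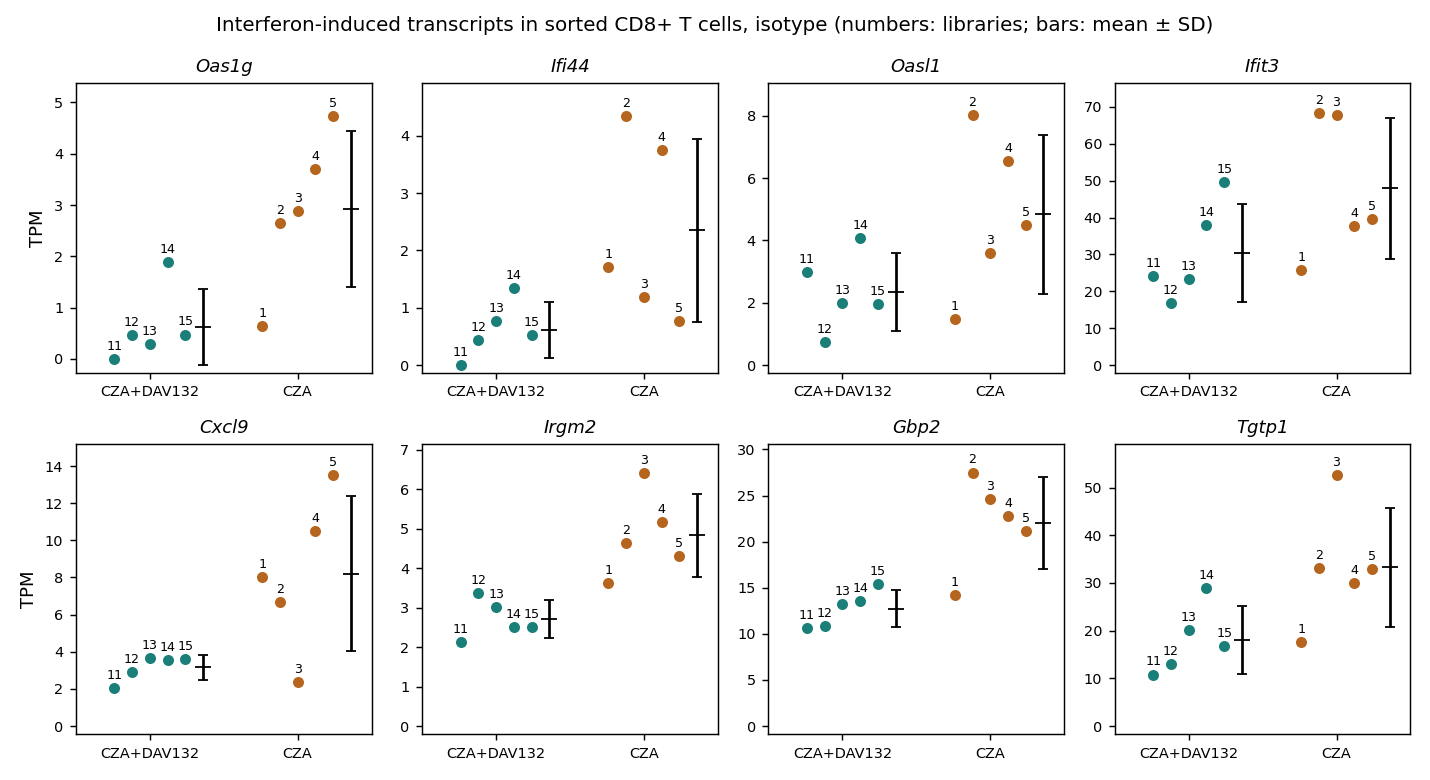
TPM of 8 interferon-induced genes in each library (points, numbered by library), with mean ± SD as black bars and CZA+DAV132 left of CZA. Irgm2 is the gene of the 8 in which the arms do not overlap, and in Cxcl9 the CZA+DAV132 libraries lie between 2.07 and 3.65 TPM.

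The MHC class I pathway, which interferons also induce and through which CD8+ T cells see antigen, had a median of -0.21 over 22 tested genes. Of these, 19 were below 0, against 60% of all tested genes, and 0 were at an unadjusted p under 0.05. Tap1, a chain of the peptide transporter, had 39 to 59.9 TPM in CZA+DAV132 (median 40.2) and 49.4 to 64.6 TPM in CZA (median 61.2). CZA+DAV132 library 15, at 59.9 TPM, stood apart from the other 4 of its arm. B2m, the light chain of class I molecules, had 13320 to 16697 TPM in CZA+DAV132 and 10278 to 15771 TPM in CZA, and its log2 fold change was 0.13.

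Macrophage and monocyte transcripts were present in every library of sorted cells and lay lower on average in CZA+DAV132, with wide spread inside both arms. All 30 markers were tested and all 30 were below 0, with a median of -0.59, against 60% of all tested genes below 0. At an unadjusted p under 0.05, 5 of the 30 were lower, where the share over all genes was 1.8%, and none passed the adjusted test. That count was 0 without CZA+DAV132 library 11, 0 without CZA library 5, and 1 to 9 without any other single library. Over all genes the lower counts were 135 of 12895 without library 11, 316 of 12854 without library 5, and 169 to 299 without any other. Lyz2, a lysozyme gene, had 27, 139, 299, 193 and 261 TPM in CZA+DAV132 libraries 11 to 15, against 117, 362, 224, 387 and 838 TPM in CZA libraries 1 to 5. CZA+DAV132 library 11 was the lowest of the 10 and CZA library 5 the highest, and the remaining 8 libraries were interleaved. The log2 fold change was -1.14 ± 0.62 (SE). In sorted bulk libraries, fewer cells of a type and less RNA per cell cannot be told apart.

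The same libraries stood at the ends in other markers. C1qa, a chain of complement C1q, had 3.95, 26.9, 61.4, 45.7 and 49.5 TPM in CZA+DAV132, against 21.2, 64.6, 26.6, 67.1 and 122 TPM in CZA. Ms4a7, a membrane protein gene of macrophages, had 3.38, 12.5, 45.1, 27.8 and 30 TPM in CZA+DAV132, against 15.7, 58.7, 37.2, 46.4 and 111 TPM in CZA. Again library 11 was lowest and library 5 highest, and Ms4a7 had a log2 fold change of -1.28 ± 0.57 (SE). A dinucleotide stretch lies in a transcript of Ms4a7.

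Adgre1, the gene of the macrophage marker F4/80, had 0.421, 0.512, 1.76, 1.39 and 2.23 TPM in CZA+DAV132, against 0.826, 2.36, 3.65, 2.98 and 8.91 TPM in CZA. All the CZA libraries but library 1 lay above the CZA+DAV132 range (log2 fold change -0.92). Fcgr1, the high-affinity Fc receptor for IgG, averaged 2.18 ± 1.29 TPM in CZA+DAV132 and 5.41 ± 4.11 TPM in CZA. Lgmn, a lysosomal protease, averaged 22.5 ± 8.82 TPM in CZA+DAV132 and 39.1 ± 10.9 TPM in CZA and was also among the markers at an unadjusted p under 0.05. Csf1r, the receptor through which macrophages are sustained, averaged 2.33 ± 1.27 TPM in CZA+DAV132 and 3.72 ± 1.39 TPM in CZA.

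How far the markers leaned depended on libraries 11 and 5. The median of the 30 markers was -0.23 without CZA+DAV132 library 11 and -0.35 without CZA library 5, and 28 and 29 of the 30 were then below 0. It ran from -0.54 to -0.72 when any other single library was left out. The interferon gamma list had a median of -0.47 without library 11 and -0.48 without library 5. Of the genes whose promoters are shown, Oas1g and Cxcl9 were also lowest in library 11 and highest in library 5. Ifi44, Gbp2 and Irgm2 were lowest in library 11 but highest in CZA library 2 or 3. Oasl1 was lowest in library 12 and highest in CZA library 2. The summed level of the 30 markers was 2935 to 5347 TPM in CZA+DAV132 and 2601 to 6822 TPM in CZA. Ly6c2, which activated CD8+ T cells also express, made up a large part of that sum, with 1401 to 2569 TPM in CZA+DAV132 and 1335 to 4299 TPM in CZA. Fcer1g, an adaptor chain that natural killer cells also express, had 546 to 1561 TPM in CZA+DAV132 and 434 to 1219 TPM in CZA. The part of macrophage and monocyte transcripts in the interferon results was not tested.

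**Figure D3:**
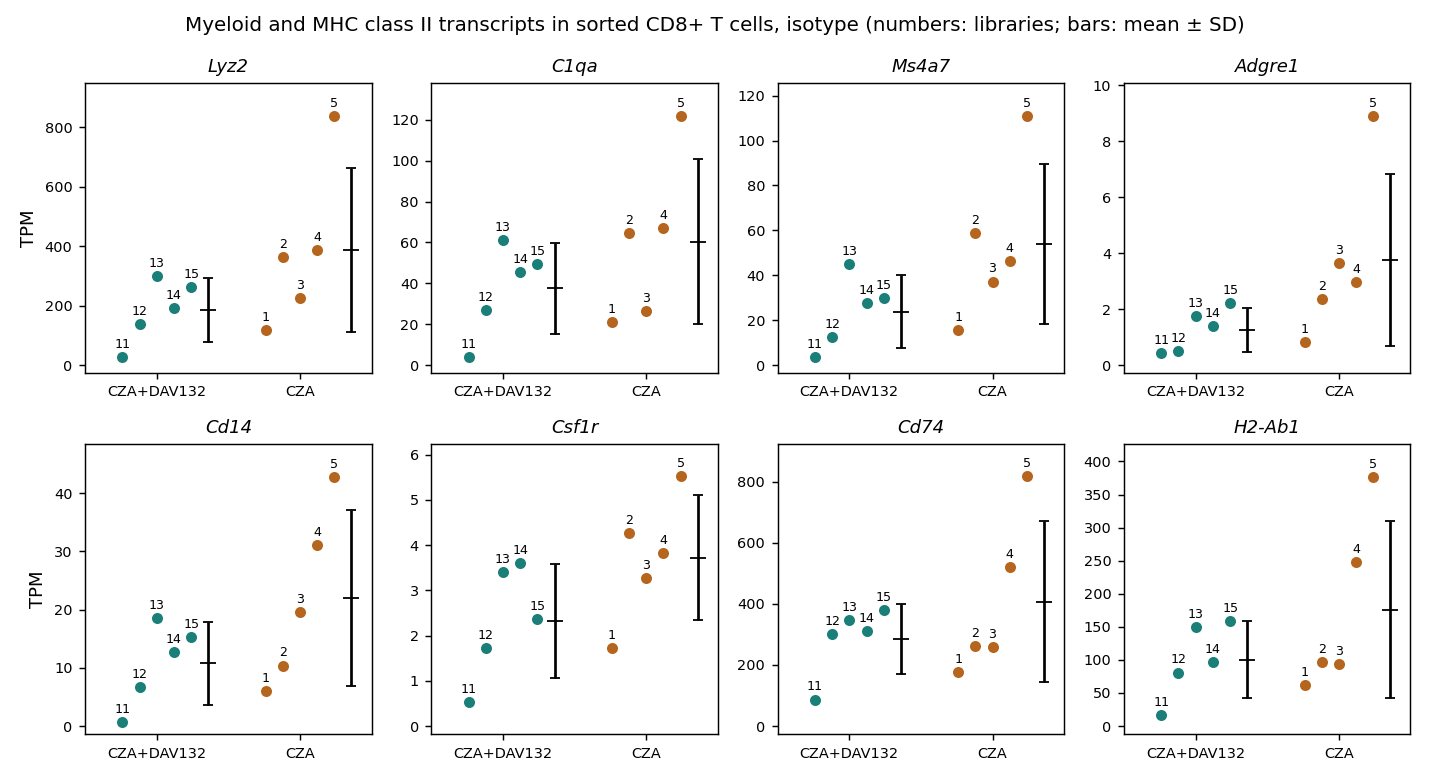
TPM of 6 macrophage and monocyte markers and 2 MHC class II pathway genes in each library (points, numbered by library), with mean ± SD as black bars and CZA+DAV132 left of CZA. Library 11 is the lowest and library 5 the highest point in each panel.

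MHC class II presentation followed the same libraries. All 10 tested genes were below 0, with a median of -0.43, and 0 were at an unadjusted p under 0.05. Cd74, the invariant chain, had 86.8, 302, 348, 312 and 380 TPM in CZA+DAV132, against 176, 261, 259, 521 and 819 TPM in CZA. H2-Ab1, the beta chain of I-A, had 16.4, 80.9, 149, 97.4 and 159 TPM in CZA+DAV132, against 62.4, 96.3, 93.8, 248 and 377 TPM in CZA. Library 11 was the lowest and library 5 the highest for both genes, and the median of the list was -0.12 without library 11 and -0.21 without library 5.

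Myeloid chemokines and cytokines had a median of -0.46 over 15 tested genes, 13 of them below 0, and 0 at an unadjusted p under 0.05. Ccl2, which recruits monocytes, had 4.27, 59.2, 75.7, 75.5 and 97.9 TPM in CZA+DAV132, against 43.4, 211, 18.2, 87.5 and 79.5 TPM in CZA. Its sign turned without library 11, to 0.21, and the median of the list was then -0.08, against -0.19 without library 5. The 2 members above 0 were the neutrophil chemokines Cxcl1, at 0.81, and Cxcl2, at 0.52.

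Markers of other cells were looked at in the same way. Of the neutrophil markers, 6 of 15 passed the filter, with a median of 0.35, and Camp, Ngp and Elane, genes of granule proteins, were listed at 0 in all 10 libraries. S100a8, a calcium-binding protein abundant in neutrophils, had 1.46, 7.26, 7.14, 18.8 and 1.26 TPM in CZA+DAV132, against 3.31, 2.48, 0, 0 and 44.9 TPM in CZA, so the arms overlapped fully. Dendritic cell markers had a median of -0.09 over 13 genes, and 9 were below 0. Ccl17, a chemokine of activated dendritic cells, averaged 11.6 ± 8.06 TPM in CZA+DAV132 and 6.15 ± 8.26 TPM in CZA (log2 fold change 1.14). Natural killer and gamma-delta T cell markers had a median of -0.15 over 11 genes, and CD4 and regulatory T cell markers had a median of 0.14 over 8. Fibroblast and sarcoma matrix markers had a median of -0.45, with 10 of 11 below 0 and 0 at an unadjusted p under 0.05. That median was 0.11 without CZA library 2, with 3 of 10 tested below 0, and -0.00 without CZA+DAV132 library 11. B cell and plasma cell markers had a median of -0.36 over 5 genes, none of which was at an unadjusted p under 0.05, and without library 11 it was -0.10. Endothelial and erythroid markers had a median of 0.19 over 6 genes, 5 of them above 0. Pecam1 was the 1 below 0, at -0.75. It had 2241 and 1275 TPM in CZA libraries 1 and 2, those with the largest repeat share, and 186 to 381 TPM in all others of both arms. The endothelial markers Cdh5, Kdr and Emcn had at most 0.201, 0.523 and 0.25 TPM in any library, so Pecam1 cannot be read as an endothelial signal here. The 2 mast cell and basophil markers tested, Kit and Mcpt8, were at 0.36 and 0.25.

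The T cell identity genes were close between the arms, with a median of -0.03 over 16 genes and 0 at an unadjusted p under 0.05. Cytotoxic effectors had a median of -0.17, with 11 of 16 genes below 0, and without CZA library 5 the median was 0.00, with 8 of 16 below 0. Gzmb, the main granzyme of killer cells, had 1797, 668, 1696, 851 and 1247 TPM in CZA+DAV132, against 1085, 1092, 1359, 1208 and 2569 TPM in CZA. Prf1, which encodes perforin, had 22.9, 17.8, 22.8, 15.5 and 31 TPM in CZA+DAV132, against 25.4, 22.1, 39.1, 42.8 and 95.9 TPM in CZA. CZA library 5 was the highest for both genes, and the arms overlapped (Prf1 log2 fold change -0.84).

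Inhibitory receptors and exhaustion genes had a median of -0.04 over 16 genes. Pdcd1, the gene of PD-1, had 165, 119, 99.7, 69.8 and 120 TPM in CZA+DAV132, against 101, 92.6, 112, 98.3 and 180 TPM in CZA, for a log2 fold change of -0.03 ± 0.40 (SE). Bhlhe40, a transcription factor of activated T cells, averaged 118 ± 36.7 TPM in CZA+DAV132 and 76.5 ± 12.2 TPM in CZA. Stem-like and memory genes had a median of -0.29, with 12 of 14 below 0 and 0 at an unadjusted p under 0.05. Without CZA+DAV132 library 11 that median was -0.07, with 9 of 14 below 0, and without CZA library 3 it was -0.14. Among them Slamf6, a receptor of progenitor-like cells, averaged 6.62 ± 1.36 TPM in CZA+DAV132 and 10 ± 2.66 TPM in CZA.

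T cell cytokines divided evenly, with 8 of 15 above 0 and a median of 0.06. Il2, the T cell growth factor, had 3.85, 8.2, 8.21, 5.94 and 11.6 TPM in CZA+DAV132, against 8.85, 24.9, 7.56, 16.9 and 26.8 TPM in CZA. CZA libraries 1 and 3 lay inside the CZA+DAV132 range (log2 fold change -0.98). Csf2, which encodes GM-CSF, had 80.9, 100, 88.5, 98.9 and 141 TPM in CZA+DAV132, against 48.9, 52, 42.5, 61.3 and 65.1 TPM in CZA. All 5 CZA+DAV132 libraries lay above all 5 CZA libraries, as in 0.309% of all genes, and with the spread shared over all 4 CD8 groups the log2 fold change was 0.89 ± 0.49 (SE). Among 7 gut homing and type 17 genes, Itga4, an integrin chain used in homing to the gut, averaged 3.76 ± 1.97 TPM in CZA+DAV132 and 7.17 ± 2.1 TPM in CZA.

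Cell cycle genes had a median of 0.07 over 30 genes, and the cyclin E genes that drive entry into DNA synthesis went opposite ways. Ccne1 had 18.3, 18.6, 19.4, 17 and 16.4 TPM in CZA+DAV132, against 20.2, 29.6, 33.6, 20.5 and 28.6 TPM in CZA. The arms did not overlap (log2 fold change -0.51). Ccne2 had 15.2, 8.57, 8.49, 4.14 and 10.1 TPM in CZA+DAV132, against 4.7, 3.95, 5.2, 4.81 and 7.54 TPM in CZA, with library 14 inside the CZA range (log2 fold change 0.66).

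The immediate early genes and heat shock genes together had a median of 0.24, with 21 of 23 above 0, and 0 at an unadjusted p under 0.05. Library 14 carried much of this, with 78.4 TPM of Fosb, an AP-1 subunit, where the other CZA+DAV132 libraries had 9.01 to 18.6 TPM and the CZA libraries 8.94 to 14.4 TPM. Without library 14 the median was -0.01. Oxidative phosphorylation genes had a median of 0.19, with 35 of 40 above 0, and cytosolic ribosomal protein genes a median of 0.17, with 67 of 79 above 0. Repeat entries took the largest TPM share in CZA libraries 1 and 2, and without these libraries the oxidative phosphorylation median was -0.09. Cholesterol synthesis had a median of 0.16 over 20 genes, and glycolysis and hypoxia a median of -0.12 over 24.

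Among genes averaging at least 5 TPM, the smallest p-values belonged to genes outside most of these lists. Tff1, a secreted trefoil peptide best known from gastric mucosa, had 67.5, 96.5, 43.7, 68.3 and 86.3 TPM in CZA+DAV132, against 27.8, 42.2, 13.2, 27.4 and 20.2 TPM in CZA. Every CZA+DAV132 library lay above every CZA library, though libraries 13 and 2 were close, at a log2 fold change of 1.48 ± 0.46 (SE). Plk2, a polo-like kinase gene, had 15.5, 11.8, 9.43, 15.9 and 8.35 TPM in CZA+DAV132, against 6.63, 6.69, 4.79, 7.19 and 5.01 TPM in CZA. It did not overlap between the arms either (log2 fold change 0.87). Cep41, a centrosomal protein gene, averaged 19.5 ± 3.28 TPM in CZA+DAV132 and 10.8 ± 3.11 TPM in CZA, again with no overlap. Nrgn, which binds calmodulin, averaged 437 ± 184 TPM in CZA+DAV132 and 226 ± 57.1 TPM in CZA, and the natural killer receptor gene Klrb1b averaged 6.93 ± 1.94 TPM in CZA+DAV132 and 3.89 ± 0.666 TPM in CZA.

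On the lower side, Ppil2, a peptidyl-prolyl isomerase gene, had 50, 52.3, 46.1, 47.3 and 50.6 TPM in CZA+DAV132, against 87.7, 115, 86.2, 61.5 and 60.3 TPM in CZA. The arms did not overlap (log2 fold change -0.69). Pld4, an endolysosomal nuclease of myeloid cells, had 0.643, 2.96, 6.12, 4.27 and 5.11 TPM in CZA+DAV132, against 3.26, 8.89, 6.19, 10.1 and 16 TPM in CZA, so that library 11 was again lowest and library 5 highest. Nr2f1, an orphan nuclear receptor gene, had 1.49, 1.96, 1.96, 3.11 and 2.1 TPM in CZA+DAV132, against 85.9, 81.6, 6.78, 2.34 and 2.02 TPM in CZA. Its log2 fold change of -2.20 ± 0.69 (SE) rested on CZA libraries 1 and 2, those with the largest repeat share. Of the 12 genes taken on each side, 3 lower and 1 higher have a dinucleotide stretch in a transcript.

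**Figure D4:**
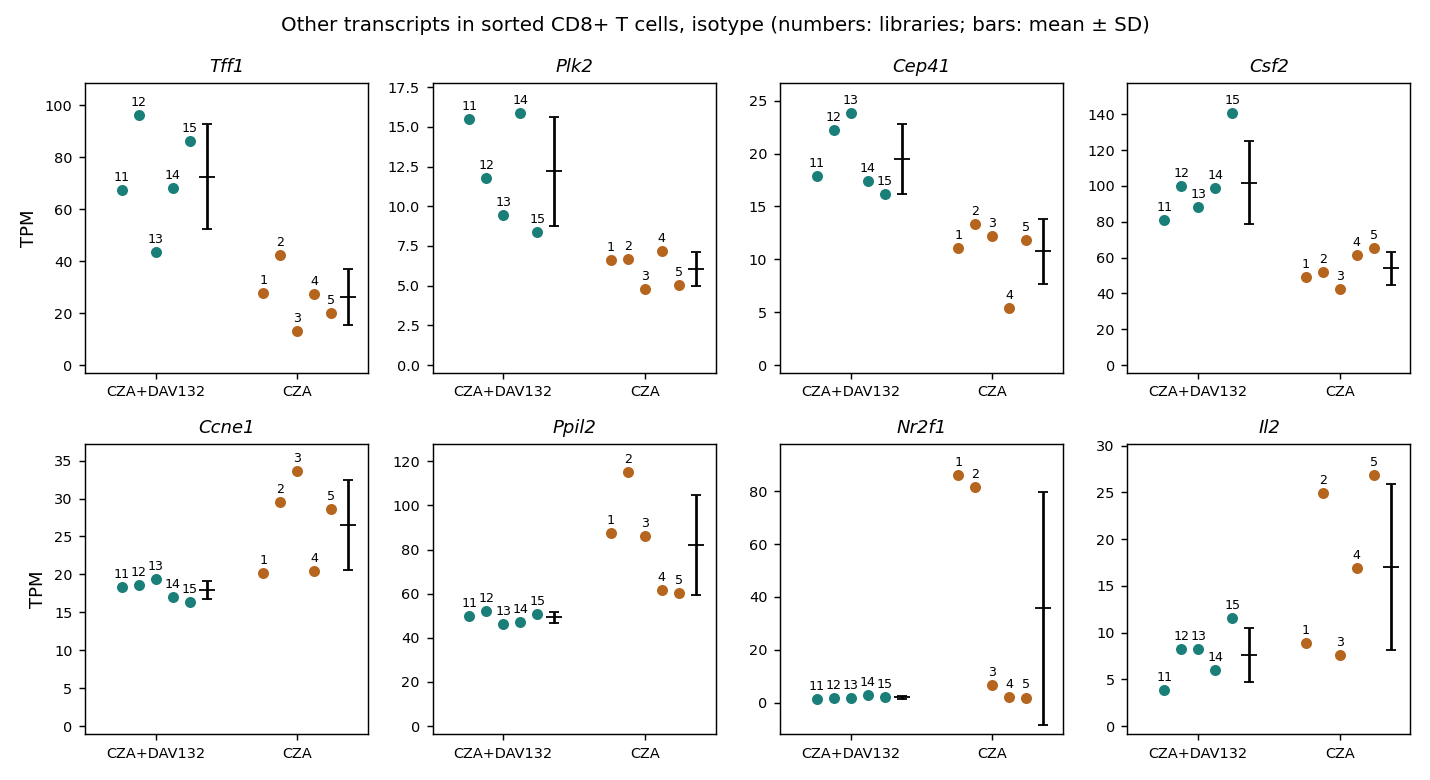
TPM of 8 further genes in each library (points, numbered by library), with mean ± SD as black bars and CZA+DAV132 left of CZA. Tff1, Plk2, Cep41, Csf2, Ccne1 and Ppil2 show no overlap between the arms, and Nr2f1 is high in CZA libraries 1 and 2 at 85.9 and 81.6 TPM. The genes were taken for the smallest p-values on their side or within their list, from a fit that includes these same libraries. Of all genes tested, 0.309% had every CZA+DAV132 library highest and 0.24% had every one lowest.

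Whether the effect of the FMT arm differed between isotype and anti-PD-1 was tested as an interaction over all 20 CD8 libraries. Limma called 0 genes (0%) at an adjusted p under 0.05. At an unadjusted p under 0.05, the isotype effect was lower than the anti-PD-1 effect in 474 genes (3.66%) and higher in 1562 (12.1%), and the median difference over all genes was 0.37. Under anti-PD-1, repeat entries took 11.6% to 69.1% of TPM in CZA+DAV132 libraries and 3.71% to 14.3% in CZA libraries. Without the highest of these, libraries 16 and 19, a choice made after seeing the data, 571 of 12794 genes were lower, 611 were higher and the median was -0.00. Plk2 had the lowest adjusted p, with a log2 fold change of 0.87 under isotype and -1.32 under anti-PD-1 (limma adjusted p of the difference 0.175, and 0.0246 to 0.407 over its 28 alternatives). Of 40 oxidative phosphorylation genes, 34 were higher in this difference at an unadjusted p under 0.05, and 24 without libraries 16 and 19. Of the 18 interferon gamma induced genes 3 were lower, at a median difference of -0.12, and without libraries 16 and 19 it was 7, at -0.47. The macrophage and monocyte markers had a median difference of -0.15, and of -0.26 without libraries 16 and 19.

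The same FMT arms were compared under isotype in a first experiment on whole tumours, with 4 CZA+DAV132 and 5 CZA libraries in a table of their own. The labels number these libraries in a separate block for each arm. Anything that follows the numbering cannot be told apart from the arm. Of 13326 genes 15 were called (0.113%), all higher, and at an unadjusted p under 0.05, 250 were lower (1.88%) and 1204 higher (9.03%), with a median of 0.21 over all genes. The interferon gamma induced genes had a median of -0.30 there, with 13 of 18 below 0, and Gbp2 was the 1 member of the list that was lower at an unadjusted p under 0.05. The type I effectors had a median of 0.01 and the macrophage and monocyte markers a median of -0.12, with 18 of 38 and 17 of 30 below 0. Over all 13326 genes, 4914 lay below 0. At an unadjusted p under 0.05, 3 type I effectors were lower and 1 was higher. Of the macrophage and monocyte markers, 2 were lower and 0 higher by that measure. MHC class II genes had a median of 0.21, with 2 of 10 below 0, and 1 was lower and 2 were higher at an unadjusted p under 0.05. No member of these 4 lists passed the adjusted test in the tumour libraries.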

How the data were processed

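Per the labels' protocols, libraries came from 300 ng of total RNA after removal of ribosomal RNA, with a kit that keeps the strand. The authors deposited TPM for 28023 gene symbols, made with kallisto 0.45 and GRCm38 per the submitters' processing notes. The annotation they used is not given in the sources used here, and 27857 symbols were matched to GENCODE M21 of GRCm38. The TPM of the 10 libraries summed to 978176 to 986344. TPM keep no counts, so no counting error is given, and kallisto divides reads among transcripts that match alike.

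A gene was tested where 4 or more libraries of its table reached 1 TPM, on log2(TPM + 1), with limma 3.58.1 in R 4.3.3, with 4 group means over all 20 CD8 libraries, a mean-variance trend and Benjamini-Hochberg adjustment over all genes tested (two-sided). All fold changes given are differences on this scale, so those of low genes are understated. The whole-tumour table was fitted separately. The fit was tested on simulated data. Repeat entries are genes with at least 25% of their transcripts' 21-base words in a satellite or dinucleotide repeat, and a dinucleotide stretch has at least 31 bases. The 27 lists hold 503 symbols, 497 of them in the table. The members and lists were chosen with earlier results of these data known. Named genes are the 12 of smallest p on each side with a mean of at least 5 TPM (pseudogenes and predicted genes left out), the 3 members of smallest p in each interferon and myeloid list, the 2 of smallest p in other lists, and fixed reference genes of the cell types. Other members, such as Tgtp1, Gbp2b and Fcer1g, are named to complete a count or a sum and were chosen after their values were seen. Alternatives were other filters, pseudocounts, scalings and weights, a fit restricted to both arms compared, and each library left out. Some genes of the lists are counted but not reported here by name.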

Additional observations from a re-analysis of the deposited data

Results flagged for a closer look

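In 220 groups of 5 values, 18 had a library that stood far from the other 4 by Dixon's criterion, which chance alone meets in about 1 in 20 groups. Of these, 7 were the high value of CZA library 5. That library had 712 TPM of Ifng, where the other CZA libraries had 167 to 287, 2569 TPM of Gzmb, where they had 1085 to 1359, 95.9 TPM of Prf1, where they had 22.1 to 42.8, and 180 TPM of Pdcd1, where they had 92.6 to 112. It also had 44.9 TPM of S100a8, 11.1 TPM of S100a9 and 4.38 TPM of H2-Ob, where the highest of the others had 3.31, 3.21 and 1.69 TPM.

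In the CZA+DAV132 arm, library 14 had the highest Fosb, 78.4 TPM, the highest Jun, 71.5 TPM, and the highest Oas1g, 1.89 TPM. Library 11 had the lowest Cd74, 86.8 TPM, and the highest Prdm1, 5.32 TPM. Library 15 had the highest Gzmk, 123 TPM, where the other 4 had 22.7 to 35.9 TPM, and the highest Tap1, 59.9 TPM. In the CZA arm, library 4 had the highest Ccl17, 20.6 TPM, and the lowest Cep41, 5.4 TPM, library 3 had the lowest Hba-a2, 23.7 TPM, and library 2 had the highest Timp1, 44.3 TPM.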

How the results depend on the processing

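The count of called genes in CD8+ T cells, 0 with limma and 320 at an unadjusted p under 0.05, was 2 called and 605 unadjusted when only the groups compared were fitted, 3 and 705 with median-ratio scaling, 3 and 699 without repeat entries, and 3 and 944 with array weights. It was 579 unadjusted with no filter and 114 at a mean of at least 5 TPM. Leaving out each library gave 0 to 1 called. Without CZA libraries 1 and 2, 19 were called, 16 of them higher, and 15 of those 16 have a dinucleotide stretch. The interaction, with 0 called, gave 1 with median-ratio scaling, 1 without repeat entries, 6 with array weights, 1 without libraries 16 and 19, and 0 to 1 with each library left out. In whole tumours the 15 called were 0 when only the groups compared were fitted, 31 at a pseudocount of 0.1, 5 with array weights, and 5 to 73 with each library left out (73 without CZA library T985). The oxidative phosphorylation median was -0.09 without CZA libraries 1 and 2.

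Of 109 named genes, 9 changed sign under some alternative, none of them called. With median-ratio scaling Cd3e was 0.02, Ifng 0.01 and Pdcd1 0.03, and without CZA libraries 1 and 2 Pecam1 was 0.47. With each library left out, Ccl2 ranged from -1.01 to 0.21, Cd3e from -0.13 to 0.02, Havcr2 from -0.41 to 0.08, Ifng from -0.25 to 0.27, Ly6c2 from -0.40 to 0.02, Mx1 from -0.26 to 0.04, Pdcd1 from -0.18 to 0.13 and Tcf7 from -0.41 to 0.02. The cause was not tested. No paired analysis was possible because the groups compared share no replicate numbers.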

Other observations

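The processed pseudogenes Gm12895 and Gm12896 carried the same values in every library, as copies with shared reads do, and averaged 723 ± 126 TPM in CZA+DAV132 and 294 ± 43.4 TPM in CZA (SD, n = 5 each). All 5 CZA+DAV132 libraries lay above all 5 CZA libraries, with a log2 fold change of 1.29 ± 0.31 (SE; limma adjusted p = 1), and Gm12895 was called in 4 of its 18 alternatives, with adjusted p from 0.000104 to 1. Gm14450, another processed pseudogene, was listed at 0 in every CZA+DAV132 library and averaged 1.88 ± 0.994 TPM in CZA (limma adjusted p = 0.107, and 0.00359 to 0.985 over its 17 alternatives). Pseudogenes can take reads from parent genes, which was not tested. Trim30c, of an interferon-induced Trim cluster, was called at -1.49 without CZA libraries 1 and 2 (limma adjusted p = 0.0373).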
